A study of Mus musculus with 16 samples.

Results

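The Onecut factors are *Onecut1*, *Onecut2* and *Onecut3*, 3 of the 49671 genes listed in the count tables. They were taken by name and followed in every library, age and cell class. *Onecut1* had been a leading gene of a proprioceptor cluster at p1 in an earlier analysis of these counts, and the family was chosen on those values, so its variation among p1 proprioceptors is given below as a description with no test. Single tdTomato-positive cells of mouse dorsal root ganglia had been profiled with CEL-Seq2, which counts unique molecular identifiers (UMIs) at the 3′ end of transcripts. At e15.5 the cells came from *PvtdTom* embryos, a transgene in which the parvalbumin promoter drives the fluorophore, and were sorted by flow cytometry into 10 libraries of 96 wells. At p1 they came from *PvCre; Ai14* pups, labelled through parvalbumin alone, and from *Trpv1Cre; PvFlp; Ai65* pups, labelled only in cells with a history of both *Trpv1* and parvalbumin, for which the study's methods name separate Basbaum and Hoon *Trpv1Cre* lines; the study's methods describe hand picking at this age, and there were 6 libraries of 96 wells. Which line, spinal level or animals a library holds was not used here, and age, line and way of isolation cannot be told apart.

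Onecut proteins bind DNA through 1 cut domain and a homeodomain. They are known from liver and pancreas, where *Onecut1* (HNF6) was first described, and from the nervous system, where they act in the diversification and maintenance of motor neurons, spinal interneurons and retinal horizontal cells and regulate *Isl1*. Proprioceptors are the sensory neurons that report muscle length and force, and are marked by parvalbumin, *Runx3*, *Etv1* and *Ntrk3*. Some cutaneous mechanoreceptors also make parvalbumin.

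In GENCODE M21 (GRCm38), *Onecut1* (ENSMUSG00000043013) lies at chr9:74861921-74891781, *Onecut2* (ENSMUSG00000045991) at chr18:64340020-64400987 and *Onecut3* (ENSMUSG00000045518) at chr10:80494835-80517276, all on the plus strand and all with 2 exons in the longest transcript. A lincRNA, *Gm20649*, covers nearly all of *Onecut1* on the same strand and held 0 UMIs in proprioceptor-like wells at both ages. A short unclassified transcript inside *Onecut3*, *2610034O05Rik*, held 7 UMIs there at e15.5 and 1 at p1. Since the UMIs mark 3′ ends and not length, levels below are compared between classes and ages of 1 gene and never between genes.

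Wells of at least 10000 UMIs at e15.5 and 5000 at p1 were used, which left 871 of 960 and 414 of 576 wells. A library held 3701900 to 9299431 UMIs at e15.5 and 386517 to 8814472 at p1, where S3 was by far the shallowest. Classes were set from the summed CPM (UMIs per 1000000 UMIs of the well) of marker genes that include no Onecut gene. At e15.5 this gave 273 proprioceptor-like wells, 64 more with glial transcripts, 49 other sensory neuron-like wells and 382 connective-like wells, and 103 met no rule. Thus the largest class at e15.5 carried collagens and fibronectin and not the proprioceptor markers that the tissue label names. At p1 there were 280 proprioceptor-like wells, 112 with glial transcripts, 9 other sensory neuron-like and 2 connective-like wells. All libraries use the same 96 well numbers and no 2 wells held identical counts. The library was the replicate; nothing states that libraries came from separate animals, so p-values measure the spread between libraries, which may be technical.

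Transcripts of all 3 genes were found in proprioceptor-like wells at e15.5 and were far lower in connective-like wells. *Onecut1* lay at 10.5 CPM in the lowest of the 10 libraries, 16.6 in the median and 22.3 in the highest. *Onecut2* lay at 206, 305 and 458 CPM, and *Onecut3* at 12.8, 18.9 and 31.3 CPM. For every gene the lowest proprioceptor-like library was above the highest of the 9 connective-like libraries, which reached 1.85 CPM for *Onecut1*, 16.7 for *Onecut2* and 5.24 for *Onecut3*. Connective-like S10, with only 5 wells, had 0 UMIs of *Onecut1* and *Onecut3*, which allows up to 25.1 CPM. For these genes its counts do not place S10 below the lowest proprioceptor-like library. In the connective-like wells *Onecut1* had 6 UMIs in all and *Onecut3* had 8, over 382 wells.

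**Figure D1:**
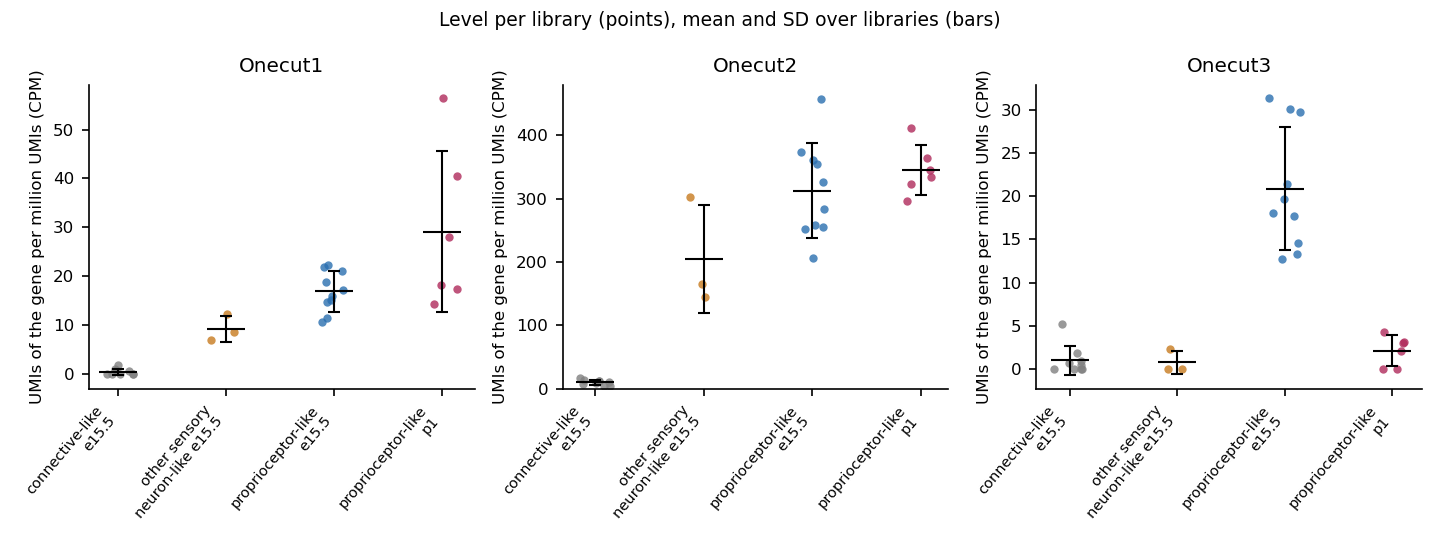
Level of each Onecut gene in CPM (linear y axis, a separate scale per gene) in every library with at least 5 wells of the class, by class and age; points are libraries and bars give the mean and SD. *Onecut3* is above 12 CPM in each e15.5 proprioceptor-like library and below 5 CPM in each p1 library, while *Onecut1* spreads widely at p1.

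Summed per library and tested with edgeR's quasi-likelihood test, all 3 were higher in proprioceptor-like than in connective-like wells, where 40.2% of the 14115 genes tested were called in that direction, 39.3% in the other and 79.5% in either. The log2 difference was 4.90 (SE 0.37) for *Onecut1*, 5.18 (SE 0.23) for *Onecut2* and 4.78 (SE 0.47) for *Onecut3*. Benjamini-Hochberg adjusted p-values from edgeR were 5.7e-12, 2.76e-16 and 9.09e-10. The *Onecut1* and *Onecut3* contrasts rest on 6 and 8 UMIs in the connective-like wells, so their size is less sure than their direction.

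Against other sensory neurons *Onecut3* was higher in proprioceptor-like wells. The differences of *Onecut1* and *Onecut2* did not pass the threshold in the main fit, which does not pair the classes of a library. With the library as a block *Onecut2* was called (0.83, edgeR adjusted p = 0.00651) and *Onecut1* was not (1.00, edgeR adjusted p = 0.118). Whether the genes differ in this respect was not tested. The comparison had only 3 libraries with at least 5 other sensory neuron-like wells, S1 with 11, S3 with 12 and S9 with 6. *Onecut3* had 2 UMIs in the first of these (2.30 CPM) and 0 in S3 and S9, where 0 counts allow up to 1.70 and 3.66 CPM. The lowest proprioceptor-like library was at 12.8 CPM. The log2 difference was 5.06 (SE 0.79, edgeR adjusted p = 4.23e-05), and 7.76% of all tested genes were called higher in proprioceptor-like wells, 8.42% lower and 16.2% in either direction. Over all wells of the class 3 *Onecut3* UMIs faced 681, a ratio of CPM of 40.7 with an exact counting interval of 13.9 to 198. Library S1 held 2 of the 3, and the other lay in S2, which had too few such wells to enter the fit. Without S1 the other sensory neuron-like sums thus held 0 *Onecut3* UMIs. The fitted difference was then 8.58, a size that the counts do not set. Without S3 the fitted difference was 4.13.

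*Onecut1* was at 6.91, 8.48 and 12.2 CPM in the other sensory neuron-like libraries S1, S3 and S9, of which the highest overlapped the proprioceptor-like range. The proprioceptor-like wells of the same libraries were at 22.3, 11.4 and 21.04 CPM, higher in 3 of 3. Its log2 difference was 0.93 (SE 0.35, edgeR adjusted p = 0.0697). It was called with sums of at least 3 wells (0.82, edgeR adjusted p = 0.0171) and in no fit that left out a library.

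*Onecut2* was at 145, 166 and 303 CPM in the same libraries, with the last again inside the proprioceptor-like range. The proprioceptor-like wells of these libraries were at 354, 258 and 374 CPM, higher in 3 of 3. Its log2 difference was 0.65 (SE 0.25, edgeR adjusted p = 0.0788). With the library as a block it was 0.83 (edgeR adjusted p = 0.00651) and was called. It was also called without library S6 (0.70, edgeR adjusted p = 0.0343) or S9 (1.04, edgeR adjusted p = 0.012), with the quality filters and with classes from clusters.

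Split by marker sums, the other sensory neuron-like wells at e15.5 were 24 mechanoreceptor-like and 25 nociceptor-like. *Onecut1* had 45 UMIs in the former (12.0 CPM, 14 of 24 wells) and 9 in the latter (4.46 CPM, 5 of 25 wells). The ratio of CPM was 2.69 with an exact counting interval of 1.30 to 6.27. *Onecut2* was found in 24 of 24 and 24 of 25 wells, at 227 and 143 CPM, a ratio of 1.59 (1.39 to 1.83). *Onecut3* was found in 2 of 24 mechanoreceptor-like and 0 of 25 nociceptor-like wells, and a count of 0 allows a share of up to 12.0% of wells with a UMI at this depth, which does not limit the share that express the gene. These intervals cover counting error only, and the wells of a class share libraries, so no test was made.

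At p1 there were 8 mechanoreceptor-like wells, 5 of them from 1 library, S2. Those 5 wells had 911, 1214, 1092, 1384 and 1706 CPM, from 49 to 225 UMIs each. The well of S5 had 319.5 CPM and the wells of S6 had 0 and 45.3 CPM. *Onecut2* in the proprioceptor-like wells of S2 was 345 CPM, so within that library the mechanoreceptor-like wells were higher (1224 CPM over the 5 wells); with 1 library there is no replicate check. *Onecut3* had 0 UMIs in all 8 wells.

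Between e15.5 and p1 *Onecut3* fell in proprioceptor-like wells, *Onecut1* rose and *Onecut2* rose by less. *Onecut3* was at 0 to 4.31 CPM in the 6 p1 libraries (median 2.56), with 52 UMIs in 280 wells, and no p1 library overlapped the e15.5 libraries. S3 and S6 had 0 UMIs, which in S6 allows up to 1.30 CPM and in the shallow S3 up to 17.4 CPM. The log2 difference was -2.78 (SE 0.35, edgeR adjusted p = 9.54e-07), 6.85-fold lower at p1. Of the 12636 genes tested, 31.7% were called lower at p1, 30.6% higher and 62.3% in either direction, so a call by itself does not set a gene apart here.

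*Onecut1* ranged from 14.3 CPM in S6 to 56.4 in S5 at p1, with a median of 23.1. Of the 6 p1 libraries, 3 lay within the e15.5 range, and S4 (28.0 CPM), S2 (40.5) and S5 (56.4) lay above it. The S3 value rests on 3 UMIs. The log2 difference was 1.13 (SE 0.25, edgeR adjusted p = 0.000546), 2.19-fold higher at p1. Without S5, the highest library, it was 0.82 (edgeR adjusted p = 0.00472). The family was chosen on p1 values of *Onecut1*, so neither p-value stands apart from that choice. Haemoglobin transcripts were also highest in the proprioceptor-like wells of S5 (949 CPM over the blood marker list, against 0.64 to 226 CPM in the other p1 libraries), and their part in the result was not tested. The study's back-muscle mark *Tox* differed between p1 libraries too, at 3.88 CPM in S2, 30.9 in S5 and 48.4 to 75.3 in the others. Its part was not tested either.

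*Onecut2* was at 297 to 411 CPM at p1 (median 339), and all 6 libraries lay inside the e15.5 range. The log2 difference was 0.38 (SE 0.14, edgeR adjusted p = 0.0217), 1.30-fold higher at p1. This call was lost with no filter on low counts (0.27, edgeR adjusted p = 0.117), with sums of at least 10 wells (0.31, edgeR adjusted p = 0.0641) and with classes from clusters (0.33, edgeR adjusted p = 0.0548).

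The wells with glial transcripts, kept out of these tests, gave similar values. *Onecut1* there was 12.4 ± 5.04 CPM (SD, n = 7 libraries) at e15.5 and 25.5 ± 26.0 CPM (n = 6) at p1. *Onecut2* was 266 ± 107 and 335 ± 70.8 CPM, and *Onecut3* 16.5 ± 9.48 and 1.00 ± 1.32 CPM. With them included, the direction and the call of each gene between ages held.

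Nearly every proprioceptor-like well held *Onecut2*. It had at least 1 UMI in 268 of 273 wells at e15.5 (98.2%, exact binomial 95% interval 95.8 to 99.4%) and in 275 of 280 at p1 (98.2%, 95.9 to 99.4%). The 5 wells without it at each age were shallow, with median totals of 20942 and 10119 UMIs against 117889 and 48895 for all proprioceptor-like wells. *Onecut1* was found in 65.9% (60.0 to 71.5%) of wells at e15.5 and 60.0% (54.0 to 65.8%) at p1, and *Onecut3* in 63.0% (57.0 to 68.7%) and 13.9% (10.1 to 18.5%). As a background, connective-like wells, at a median of only 28336 UMIs, held *Onecut1* in 1.31%, *Onecut2* in 20.4% and *Onecut3* in 1.83% of wells.

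Thinning each well to 5000 UMIs set the depths equal. *Onecut1* was then found in 10.6% of e15.5 wells and 17.5% of p1 wells, the reverse order of the unthinned shares and the order of the CPM, with intervals that overlap (7.23 to 14.9% and 13.2 to 22.5%). *Onecut2* was found in 70.7% and 76.8% and *Onecut3* in 13.9% and 0.714%. In connective-like wells the thinned shares were 0%, 3.14% and 0.785%. The p1 share of *Onecut3*, 2 of 280 wells, was thus no higher than that background and is not read as expression at this depth. No well was shallower than 5000 UMIs.

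**Figure D2:**
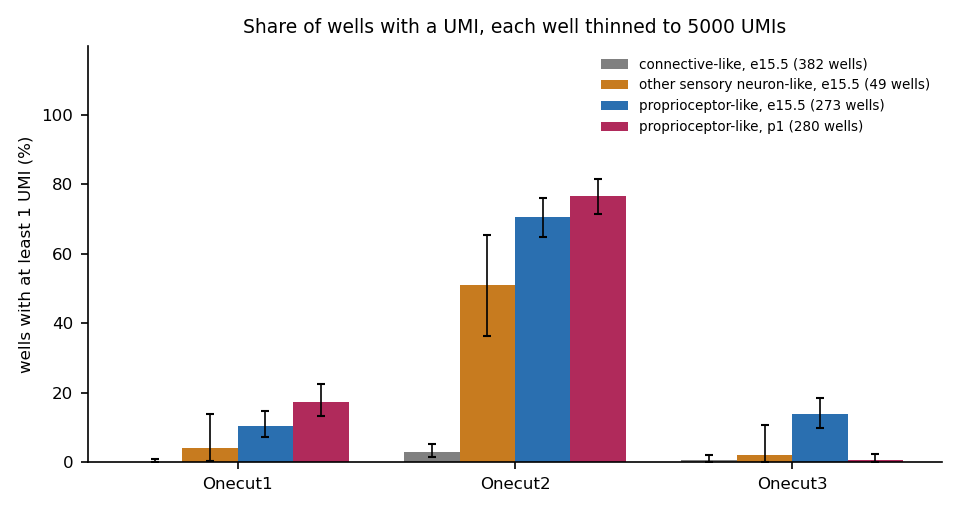
Percent of wells with at least 1 UMI of each Onecut gene after every well was thinned to 5000 UMIs, by class and age; error bars are exact binomial 95% intervals over wells and cover counting error only. *Onecut2* stands at 70.7% and 76.8% of proprioceptor-like wells at e15.5 and p1, and *Onecut3* drops from 13.9% to 0.714%.

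UMIs of all 3 genes were found together in 142 of 273 proprioceptor-like wells at e15.5 (52.0%) and in 33 of 280 at p1 (11.8%). Wells with *Onecut2* alone numbered 60 and 106, and wells with none of the genes 3 and 1. *Onecut1* and *Onecut3* shared 142 wells at e15.5, all of which also held *Onecut2*. These counts depend on depth as the shares do. The highest counts in a proprioceptor-like well were 17 UMIs of *Onecut1*, 233 of *Onecut2* and 15 of *Onecut3* at e15.5, and 26, 202 and 3 at p1.

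At the depth limit itself, the 13 proprioceptor-like wells of 10000 to 20000 UMIs at e15.5 held 8 UMIs of *Onecut1*, 63 of *Onecut2* and 2 of *Onecut3*, and the 4 wells of 5000 to 10000 UMIs held 0, 2 and 1. At p1 the 22 wells of 5000 to 10000 UMIs held 9, 53 and 1, and the 17 wells of 2500 to 5000 UMIs held 0, 21 and 0.

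Correlations were taken across the proprioceptor-like wells of 1 library at a time, on log2(UMIs per 100000 + 1), and are given as the median Pearson r over libraries, with no test. Wells of a library share its preparation, and in sparse counts a weak r is no finding. There were 8 libraries with at least 10 wells at e15.5 (261 wells) and 6 at p1 (280 wells). *Onecut1* and *Onecut3* went together, with a median r of 0.21 at e15.5 (positive in 8 of 8 libraries) and 0.22 at p1 (4 of 4 libraries with *Onecut3* UMIs). Thinned to 5000 UMIs the e15.5 value was -0.10 and the p1 value 0.13. *Onecut1* and *Onecut2* went in opposite directions, with -0.12 at e15.5 (negative in 6 of 8 libraries) and -0.25 at p1 (6 of 6), and -0.07 and -0.08 when thinned. *Onecut2* and *Onecut3* had 0.24 at e15.5 (0.03 thinned) and -0.09 at p1, positive in 1 of 4 libraries (-0.23 thinned).

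The gene most unlike *Onecut1* at p1 was *Tox*, an HMG-box factor that the study uses as a mark of back-muscle proprioceptors. Their median r was -0.48, from -0.57 to -0.17 over the 6 libraries, and -0.31 at e15.5, negative in 7 of 8 libraries. With depth taken out the p1 value was -0.45, as Spearman's rho -0.46 and thinned -0.20. Next were *Crtac1* (-0.43), the T-cadherin gene *Cdh13* (-0.37), the POU factor gene *Pou2f2* (-0.35) and *Ahnak2* (-0.34). At e15.5 the lowest values belonged to *Cdh4* (-0.41), *Pou2f2* (-0.35), *Serpinb8* (-0.33), *Sf3a1* (-0.33) and *Trmu* (-0.32). *Pou2f2*, known from the spinal cord to lie downstream of Onecut factors, was on both lists and was negative in all 8 and all 6 libraries. Split by a *Pou2f2* UMI, however, *Onecut1* at e15.5 had a median of 19.1 CPM with and 20.7 CPM without over 4 libraries, was higher with *Pou2f2* in 1 of them, and was found in 65.9% and 66.2% of wells. At p1 it had 14.6 CPM with *Pou2f2* and 47.4 CPM without, lower in 5 of 5 libraries. These splits use the wells in which *Pou2f2* was picked for its r, so they are no further support for it.

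Since *Tox* was picked for its r with *Onecut1* in these p1 wells, the levels of *Onecut1* in wells with and without a *Tox* UMI restate that choice at p1 in CPM and are no further support for it. At p1 the 6 libraries had a median of 11.3 CPM (0 to 18.5) in wells with *Tox* and 41.6 CPM (32.7 to 96.4) in wells without, and the ranges did not overlap. The value of 0 comes from 6 wells of the shallow S3. At e15.5 the 7 libraries with at least 5 wells on each side had 14.7 CPM (5.55 to 17.4) with *Tox* and 26.7 CPM (13.8 to 30.0) without, lower with *Tox* in 7 of 7. Wells with *Tox* were deeper (median 68425 against 34719 UMIs at p1), and *Onecut1* was found in 41.7% of them and in 75.2% of the wells without. *Onecut2* took the other side at e15.5, with 419 CPM in wells with *Tox* and 258 CPM without, higher in 7 of 7 libraries. At p1 it was higher with *Tox* in 4 of 6 libraries, at 345 against 309 CPM. *Onecut3* was lower with *Tox* in 6 of 7 libraries at e15.5 (11.2 to 31.1 CPM with *Tox*, and a median of 29.4 CPM without).

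**Figure D3:**
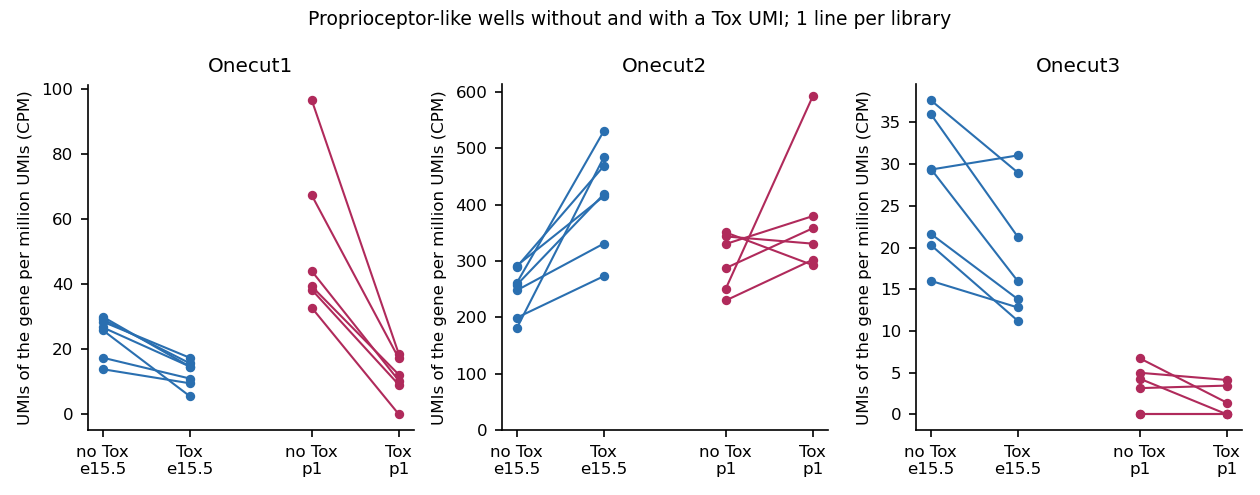
Level of each Onecut gene in CPM (linear y axis) in the proprioceptor-like wells of a library without and with a *Tox* UMI, 1 line per library with at least 5 wells on each side. For *Onecut1* all 7 lines at e15.5 and all 6 at p1 go down with *Tox*, and for *Onecut2* all 7 lines at e15.5 go up.

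The study's limb mark *Gabrg1*, a GABA receptor subunit gene, gave no common direction with *Onecut1*. At p1 *Onecut1* was higher with *Gabrg1* in 2 of 5 libraries and their median r was 0.12, positive in 3 of 6 (0.27 without the shallow S3). *Onecut2* and *Gabrg1* had a median r of -0.15 at e15.5, positive in 0 of 7 libraries (-0.07 thinned). At p1 they had 0.12, positive in 6 of 6 (0.09 thinned). Split by a *Gabrg1* UMI, *Onecut2* was higher with it in 2 of 4 libraries at e15.5 and in 4 of 5 at p1. The abdominal mark *C1ql2* had a median r of 0.15 with *Onecut1* at p1 (positive in 4 of 5 libraries) and 0.21 at e15.5 (6 of 7). Thinned to 5000 UMIs these were 0.02 and -0.04. The other back-muscle mark, the ephrin receptor gene *Epha3*, had -0.21 with *Onecut1* at p1 (negative in 6 of 6 libraries) and -0.04 when thinned. At e15.5 *Epha3* had -0.07. *Hoxc10*, the lumbar Hox gene of the study, was at 1.96 to 145 CPM in the e15.5 libraries and 4.30 to 82.1 CPM at p1, so libraries differed in axial makeup; its part in the levels above was not tested.

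The genes most like *Onecut1* at p1 included the 3 neurofilament subunit genes, *Nefm* (median r 0.41), *Nefh* (0.34) and *Nefl* (0.33), each positive in 6 of 6 libraries. The microtubule-associated genes *Map7d2* (0.39) and *Map1b* (0.33), the teneurin gene *Tenm1* (0.49), the adhesion gene *Cadm2* (0.35), *Plod3* (0.35), *Clrn1* (0.33) and *Ust* (0.33) completed the 10. After thinning to 5000 UMIs this p1 list lay between -0.06 (*Ust*) and 0.29 (*Nefm*), with *Tenm1* at 0.12, *Clrn1* at 0.06 and *Cadm2* at 0.02. At e15.5 the 10 highest were *Uts2b* (0.37), *Rab15* (0.36), *Mthfd2* (0.34), *Fgfr1* (0.34), *Rnf185* (0.33), *Nrxn2* (0.33), *Retreg1* (0.33), *Sipa1l3* (0.32), *Isl1* (0.32) and *Cdh12* (0.31). Thinned to 5000 UMIs these 10 lay between -0.10 and 0.23, and at p1 3 of them kept a positive median r. No gene was on both lists of 10. *Nefm* had 0.29 and *Cadm2* 0.25 at e15.5. Of the e15.5 list, *Isl1*, *Uts2b* and *Cdh12* had 0.21, 0.11 and 0.09 at p1, and the lowest were *Sipa1l3* (-0.13), *Fgfr1* (-0.12) and *Rnf185* (-0.10).

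**Figure D4:**
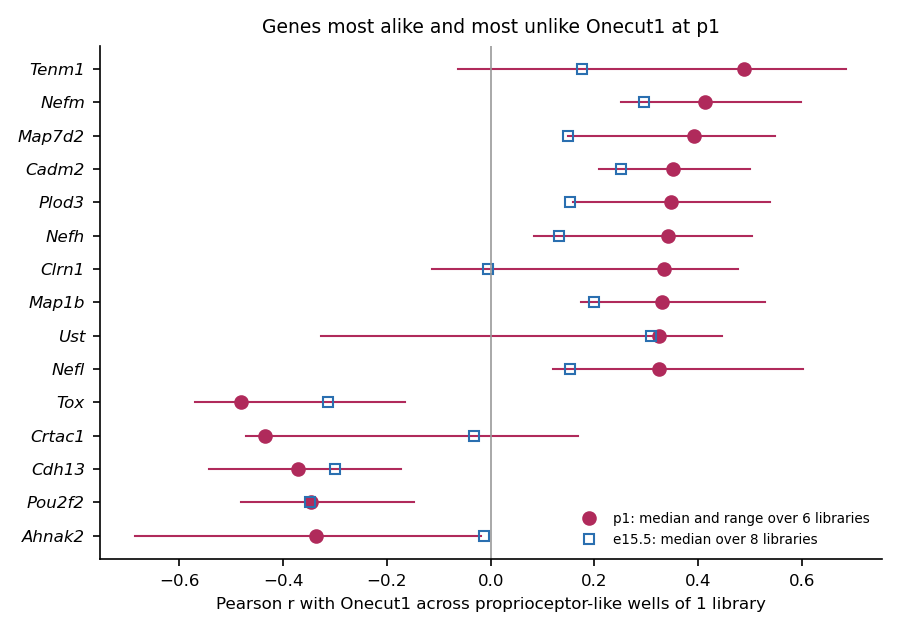
Pearson r with *Onecut1* across proprioceptor-like wells of 1 library (x axis) for the 10 highest and 5 lowest genes at p1; filled points and lines are the median and range over the 6 p1 libraries, and open squares the median over the 8 e15.5 libraries. *Tox* and *Pou2f2* are negative at both ages, and the 3 neurofilament genes positive.

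*Onecut2* had its closest partner at e15.5 in *Zfhx3*, a large homeobox and zinc-finger factor, with a median r of 0.62 (0.37 to 0.87, positive in 8 of 8 libraries). It was followed by *Thsd7b* (0.54), the RNA-binding gene *Khdrbs2* (0.53), *St6galnac5* (0.52), *Cdh13* (0.48), *Scg2* (0.47), *Pld5* (0.44), *Syt17* (0.44), the muscarinic receptor gene *Chrm2* (0.44) and *Mab21l2* (0.44). *Tox* had 0.36, positive in 8 of 8. The lowest were *Ppp1r3b* (-0.43), *Stc1* (-0.42), *Rgs4* (-0.41), *Igf1* (-0.41) and *Car10* (-0.40). None of the 10 highest at e15.5 was among the 10 at p1, and *Zfhx3* had 0.08 there. At p1 the highest were *Csnk1a1* (0.38), *Kcnh7* (0.37), *Cacnb4* (0.36), *Ablim1* (0.36) and *Phf20* (0.34), and by Spearman's rho *Csnk1a1* had 0.17. The lowest at p1 included *Nefl* (-0.28), *Nefm* (-0.25) and *Map1a* (-0.24), so neurofilament genes stood at opposite ends for *Onecut1* and *Onecut2*; thinned, *Nefl* had -0.06 and *Nefm* -0.03 with *Onecut2*.

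*Onecut3* at e15.5 was most like *Lrp1b* (0.45), the cell adhesion gene *Ncam1* (0.45, positive in 8 of 8), *Adgrl2* (0.44), the potassium channel subunit gene *Kcns1* (0.41, 8 of 8), *Fat3* (0.41) and *Ano4* (0.39). It was least like *Mgll* (-0.37), *Dlgap1* (-0.36), *Igfbp5* (-0.35), *Ncam2* (-0.35) and *Rpl13* (-0.35). Thinned to 5000 UMIs, *Lrp1b* had 0.13, *Ncam1* 0.05, *Adgrl2* 0.02, *Kcns1* 0.04, *Fat3* 0.20 and *Ano4* 0.12. The lowest genes then lay between -0.12 (*Igfbp5*) and 0.004 (*Rpl13*). With depth taken out *Lrp1b* had 0.29. At p1 only 4 libraries held *Onecut3* UMIs, and the highest values, *Minar1* (0.37), *Ccnjl* (0.37) and *Slc35e2* (0.33), rest on 52 UMIs.

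Other cut-domain genes include *Cux1*, *Cux2* and *Satb1*. In the stage comparison these 3 were tested, of which *Satb1* rose (log2 0.79, SE 0.12), *Cux1* fell by 0.62 on the log2 scale (SE 0.12) and *Cux2* had -0.08 (SE 0.10). Against connective-like wells *Cux2* was higher by 4.14 and *Satb1* by 0.91, and *Cux1* had -0.02. Against other sensory neuron-like wells *Cux2* (0.85, SE 0.18) and *Cux1* (0.56) were higher and *Satb1* (-0.72) was lower. The last 2 calls were lost with the library as a block, with edgeR adjusted p-values of 0.103 and 0.155. The median log2 difference of these 3 between ages was -0.08, against -0.03 over all genes tested.

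Of 20 genes on or with which Onecut factors are known to act in other tissues, 6 passed the filter in the stage comparison, of which 5 were called, where 62.3% of all genes were. *Nr4a2* (0.92, SE 0.19) and *Thrb* (0.87, SE 0.34) rose. *Isl1* fell by 0.86 (SE 0.16), *Pou4f2* by 1.34 (SE 0.25) and *Rxrg* by 1.51 (SE 0.27) on the log2 scale, and *Pou2f2* had -0.22 (SE 0.27). The *Thrb* call was lost without e15.5 S5 (0.78) and without p1 S1 (0.82), S2 (0.83), S4 (0.83) or S6 (0.83). The list's median was -0.54. The liver and pancreas genes of the list, among them *Foxa1*, *Foxa2*, *Hnf4a*, *Pdx1* and *Neurog3*, did not pass the filter in any comparison. Of the 8 genes tested between classes at e15.5, 4 were higher and 3 lower in proprioceptor-like than in connective-like wells, where 79.5% of all genes were called. Against other sensory neuron-like wells *Rxrg* was higher (2.92) and *Prdm8* (-5.50) and *Pou4f2* (-2.36) were lower.

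Among 24 transcription factors of the sensory lineage, 14 were tested between ages, of which 5 were higher at p1, 4 lower and 5 not called (median 0.04), beside 30.6% higher and 31.7% lower over all genes, so the share called was near the background. *Maf* rose by 2.69 (SE 0.34) and *Klf7* by 0.71 (SE 0.09). Of 19 tested at e15.5, 12 were higher and 4 lower in proprioceptor-like than in connective-like wells (40.2% and 39.3% of all genes). Against other sensory neuron-like wells 2 were higher and 10 lower (7.76% and 8.42% of all genes). Some of these genes, such as *Runx3*, *Etv1*, *Isl1*, *Runx1* and *Maf*, served to set the classes, so the last counts are no finding. Of the study's muscle marks 5 were tested between ages and 2 rose, *Gabrg1* (2.13, SE 0.73) and *Efna5* (1.28, SE 0.46). Both calls were lost without p1 S2, with 0.84 (edgeR adjusted p = 0.339) and 0.44 (edgeR adjusted p = 0.389). *Tox* had 0.52 (SE 0.40, edgeR adjusted p = 0.261).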

How the data were processed

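The members and gene lists were chosen with earlier results of these data known; values of some listed genes are not reported here. The deposited values are raw counts, which the authors obtained with scruff from CEL-Seq2 reads as the number of distinct UMIs of a gene in a well. The submitters' processing notes name mm10 and GRCm38. Ensembl IDs were matched to GENCODE M21 (49412 of 49671 had a symbol).

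Wells below 10000 UMIs (e15.5) or 5000 (p1) were left out. A well was proprioceptor-like with at least 1000 CPM over *Pvalb*, *Runx3*, *Etv1* and *Ntrk3* and under 3000 CPM over connective tissue genes, and was set aside with at least 300 CPM over glial genes. Other sensory neuron-like wells had at least 2800 CPM over *Avil*, *Isl1*, *Tubb3*, *Prph* and *Snap25*, and connective-like wells at least 3000 CPM over connective tissue genes. The cuts were set after the distributions were seen. At e15.5, 8 wells lay within 1.5-fold above the proprioceptor cut and 25 below it (18 and 8 at p1). No doublet caller was run.

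Counts summed per library and class (at least 5 wells) were tested with edgeR (version 4.0.16) in R (version 4.3.3): filterByExpr, TMM, quasi-likelihood F test, with p-values adjusted after Benjamini and Hochberg and called below 0.05. The SE is the log2 difference over the root of F. The step was tested on simulated data. Sums of 1 library share its preparation: their deviations from class means had a median r of 0.23 (0.02 to 0.57, 14 pairs), against -0.02 between libraries. Genes were named as most alike when among the 10 highest or 5 lowest median r of protein-coding genes with a UMI in at least 10% of wells (12078 genes at e15.5, 11488 at p1). Alternatives were DESeq2 (version 1.42.0), no low-count filter, other well minimums, the study's quality quantiles (508 wells passing at e15.5 and 327 at p1), clusters from scran (version 1.30.0) with the Onecut genes held out, thinning, blocks and leaving out each library. Plots were made with matplotlib (version 3.10.9).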

Additional observations from a re-analysis of the deposited data

Results flagged for a closer look

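Among 36 sets of library values of the Onecut genes, 7 had a library far from the others by the gap between it and its nearest neighbour over the whole range. For normally distributed values chance gives about 1 in 20. That rate does not hold for sparse counts bounded at 0, where 1 UMI can set a library apart. CPM and share of wells of a gene are not separate. *Onecut1* in e15.5 connective-like wells was highest in S1, at 1.85 CPM and in 5.88% of wells, from 2 UMIs. *Onecut3* in the same class was highest in S5, at 5.24 CPM from 3 UMIs. In the e15.5 wells that met no class rule, 1 UMI put *Onecut3* of S10 at 8.93 CPM and 14.3% of 7 wells, with 0 in the other libraries. Among p1 proprioceptor-like wells with glial transcripts, *Onecut2* was found in 83.3% of the 6 wells of the shallow S3, against 94.7% in the next library. *Onecut3* was found in 33.3% of the 18 such wells of S1, from 8 UMIs, against 5.56% in the next library.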

How the results depend on the processing

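In the fits of summed counts each Onecut difference kept its direction under the alternatives in which the gene was tested; *Onecut1* and *Onecut3* were not tested between ages after thinning. The unthinned and thinned shares of *Onecut1* put the ages in opposite order. Leaving out each library gave 0.82 to 1.29 (*Onecut1*), 0.32 to 0.46 (*Onecut2*) and -2.92 to -2.56 (*Onecut3*) between ages, and 4.62 to 5.16, 5.06 to 5.24 and 4.53 to 5.42 against connective-like wells, with no call changed. Against other sensory neuron-like wells it gave 0.72 to 1.13, 0.42 to 1.04 and 4.13 to 8.58, and 1334 to 2323 genes called (1334 without S3, against 2284). The 8.58 came without S1, where the other sensory neuron-like sums held 0 *Onecut3* UMIs, so the counts do not set its size. *Onecut2* between ages was not called with no low-count filter (0.27), sums of at least 10 wells (0.31) or classes from clusters (0.33). *Onecut2* against other sensory neuron-like wells was called with the quality filters (1.13), clusters (0.67), the library as replicate block (0.83) and, an alternative chosen after seeing the data, sums of at least 10 wells (1.14); *Onecut1* was called there with sums of at least 3 wells (0.82). The library block changed no other Onecut call. Thinning before summing left 2227 genes called between ages, with *Onecut2* (0.59) the only Onecut gene that passed the filter.

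With libraries S1 to S6 of each age the fit with the replicate block gave 1.16, 0.65 and -2.67 and 5996 calls; without it, an alternative chosen after seeing the data, it gave 1.29, 0.63 and -2.58 and 6618 calls. Same-numbered libraries had a median r of -0.12 between their deviations (-0.39 to 0.08, 6 pairs), so the numbers were not taken to pair them.

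Shares of proprioceptor-like wells depend on depth. With at least 2 UMIs asked for, *Onecut1* was at 47.3% at e15.5 and 39.6% at p1, *Onecut2* at 95.97% and 92.9%, and *Onecut3* at 46.9% and 3.57%. Thinned to 5000 UMIs, *Onecut1*, *Onecut2* and *Onecut3* were at 10.6%, 70.7% and 13.9% at e15.5 and 17.5%, 76.8% and 0.714% at p1; thinned to 10000 UMIs, which left out 22 p1 wells, at 15.4%, 85.3% and 16.8% and at 26.4%, 93.0% and 2.71%. Thinning to 5000 UMIs also moved the median r of the most alike genes, to 0.20 for the highest of *Onecut2* and 0.0749 for those of *Onecut3* at e15.5 and 0.0916 for those of *Onecut2* at p1. The lowest moved to -0.118, -0.148 and -0.0788 for *Onecut1*, *Onecut2* and *Onecut3* at e15.5 and to -0.159 for *Onecut1* and -0.0719 for *Onecut3* at p1. The cause of the changed calls was not tested.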
